A study of Mus musculus with 8 samples.

Results

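The nuclear genes of oxidative phosphorylation were followed, complex by complex, in RNA of sorted fetal germ cells from mouse testis. They were taken by name: every row of the counts table outside the mitochondrial genome whose symbol begins with Nduf, Uqcr, Atp5, Cox4, Cox5, Cox6, Cox7 or Cox8, together with Sdha, Sdhb, Sdhc, Sdhd, Cyc1 and Cycs, leaving out 9 rows named as pseudogenes. This gave 100 of 55487 rows, with 99 symbols, because Atp5o has 2 IDs. There were 39 rows of complex I, 4 of complex II, 9 of complex III, 1 of cytochrome c, 21 of complex IV, 17 of complex V and 9 of assembly factors. Ndufa4 and Ndufa4l2 were placed with complex IV, where their proteins are found, and the assembly factors were Ndufaf1 to Ndufaf8 and Atp5s. The annotation types 96 of the 100 as protein-coding and 4 (Ndufb4c, Ndufa11b, Ndufs6b and Cox6c2) as processed pseudogenes, which the rule on names kept.

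The groups compared had 4 libraries each, made from 1 ng of total RNA with a stranded pico-input kit. All mice were C57BL/6 and homozygous for Oct4-eGFP, a reporter that marks germ cells with green fluorescence through Oct4, a pluripotency gene they express, and germ cells were collected from fetal testes by fluorescence-activated sorting. The libraries labelled WT came from littermates, and the libraries labelled KO from animals that were also null for Rhox10, an X-linked reproductive homeobox gene. The labels give neither the fetal age nor which libraries share an animal, so every p-value here measures the spread between these libraries, which may be technical.

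Oxidative phosphorylation passes electrons from NADH and succinate through complexes I to IV of the inner mitochondrial membrane to oxygen and uses the resulting proton gradient to drive ATP synthase, complex V. Most subunits are encoded in the nucleus and imported, while a small core of complexes I, III, IV and V is encoded by mitochondrial DNA. Fetal germ cells multiply and then enter a mitotic arrest in the testis, and steroid-producing Leydig cells of the same organ are rich in mitochondria.

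Library totals ran from 16346977 to 20311338 counts. Rhox10 itself had 17 to 25 counts in each WT library and 10 to 22 in each KO library (log2 fold change -0.28, edgeR adjusted p = 0.767), a loss of reads not being seen at this depth, and directions given here are between labels. Germ-cell markers were present, with Ddx4 at 14.8 and 14.4 CPM per kilobase in the WT and KO libraries, but markers of the neighbouring somatic cells were higher per length: Amh of Sertoli cells stood at 84.5 and 84.0, and Cyp17a1, a steroid-synthesis enzyme of Leydig cells, at 474 and 430. Levels are CPM, counts relative to library size, with TMM scaling (trimmed means of log ratios). Levels of different genes are compared only per kilobase of the exon length in the counts table. In bulk samples, fewer cells of a type and less RNA per cell cannot be told apart, and this holds for each difference given here.

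In the libraries labelled KO, 6 of 94 tested nuclear oxidative phosphorylation genes were called lower and 0 higher, and 64 of the other 88 had fitted values slightly below those of the WT libraries. Ndufs4 and Ndufa13 of complex I, Uqcrb of complex III, Cox4i1 of complex IV, Atp5d of complex V and the assembly factor Ndufaf3 fell, by 10.5% (Cox4i1) to 29.1% (Ndufaf3). No gene of the set rose by this test, with 1 above 0 at an unadjusted p under 0.05, and DESeq2 and limma voom also called 0 higher. Of the 100 rows, 94 had enough counts to be tested, and 88 of these were not called; the other 6 (Ndufs6b, Cox7b2, Cox6a2, Cox8b, Cox8c and the second Atp5o ID) had too few. A gene was called at an adjusted p under 0.05 from edgeR's quasi-likelihood test with Benjamini-Hochberg adjustment over 23190 genes. By that rule 2.80% of all genes tested were lower and 2.35% higher (5.14% in either direction), against 6.38% of the members, all lower. The shares were not matched for precision: the median standard error was 0.0761 for the members and 0.115 for all genes tested.

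The members that were not called lay mostly on the same side. Log2 fold changes, KO over WT, were below 0 for 70 of the 94 tested members (74.5%) and for 49.3% of all genes tested. The median over the members was -0.07, a difference of -4.78%, against 0.00198 over all genes tested. At an unadjusted p under 0.05, 21 members were lower and 1, Atp5g2, was higher, where 8.07% of all genes tested were lower and 7.53% higher. The groups did not overlap for 7 tested members, all with lower values in the KO libraries: Ndufs4, Ndufa13, Ndufb3, Sdha, Atp5mpl, Atp5j and Atp5a1. Over all genes tested, 4.72% were without overlap in each direction. Cox7b2, which had too few counts to be tested, also had lower values in each KO library, at 2 counts apiece against 3 to 7.

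**Figure D1:**
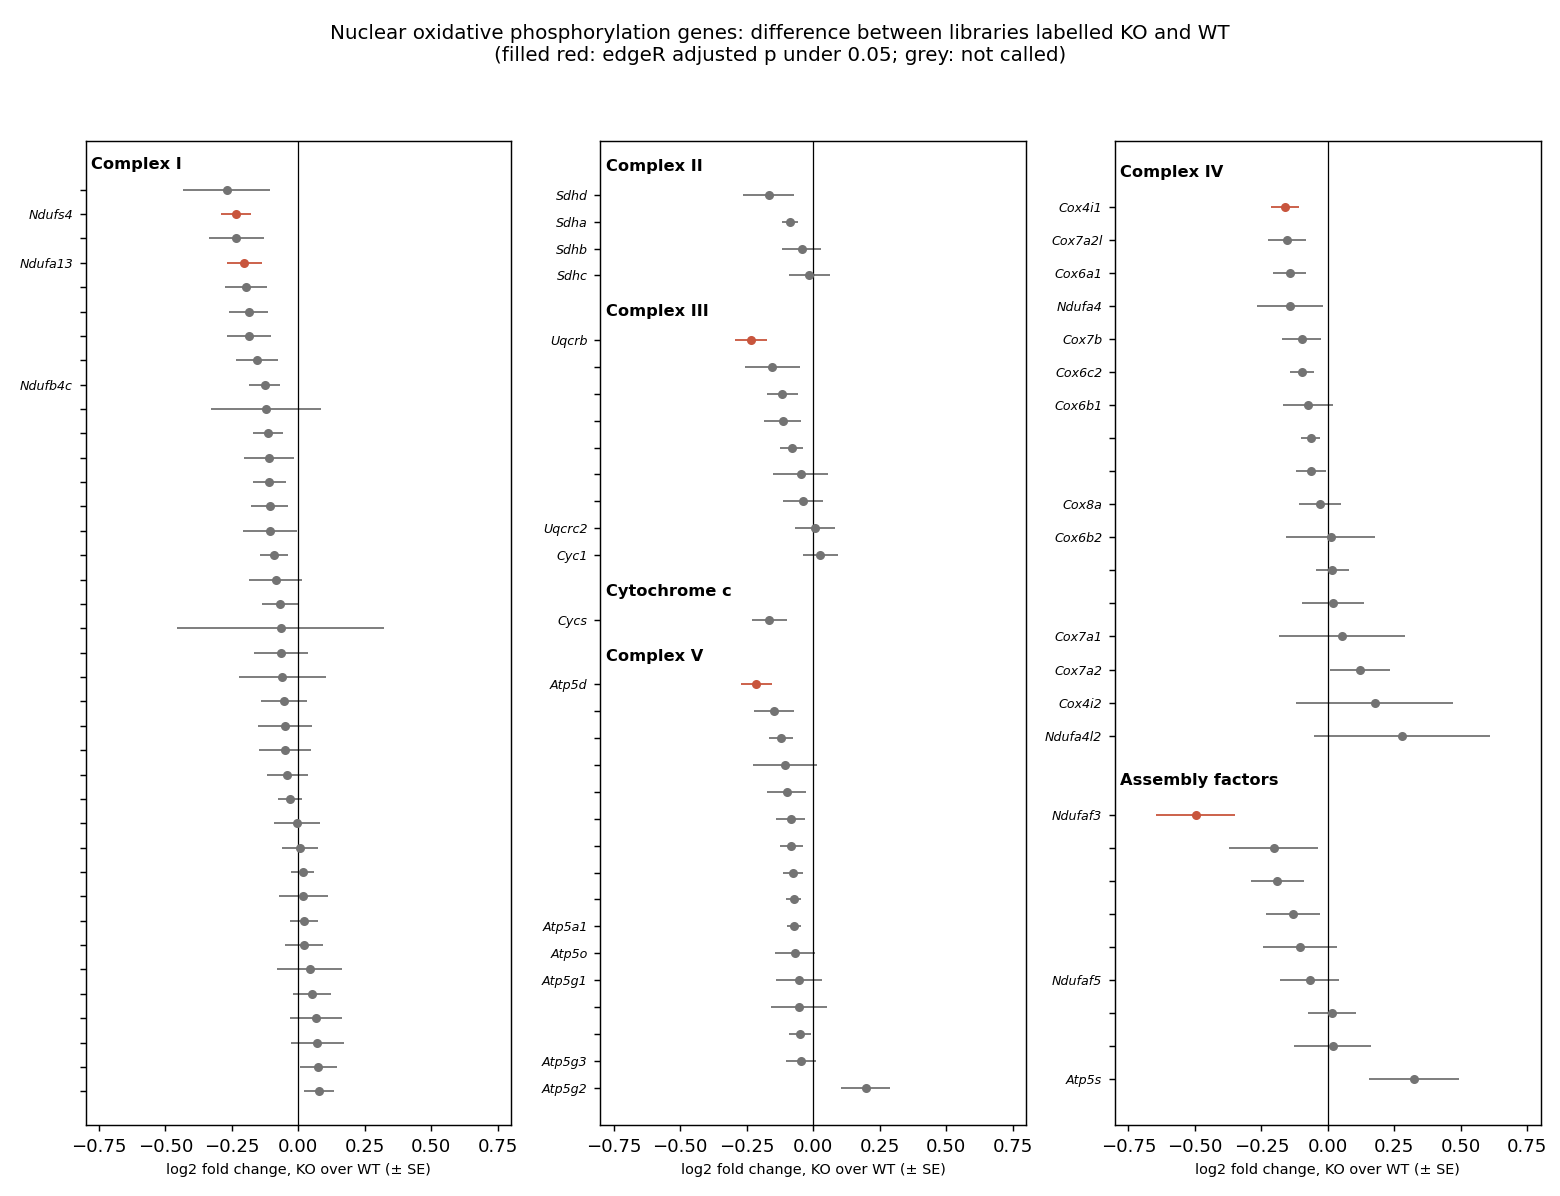
Log2 fold change, KO over WT, of the 94 tested nuclear oxidative phosphorylation genes (horizontal axis; points are fitted values, bars are ± the standard error), grouped by complex and sorted within it, with labels for the genes named by the rule in the methods. Red points are the 6 genes called lower; grey points were not called, and 70 of the 94 points lie left of 0.

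The size of this difference was sensitive to how gene length and level were handled. The members are short and well expressed: their median length was 1631 bases against 3128.5 for all genes tested, and their median level 11.03 against 3.12 CPM per kilobase. With a smooth offset per library on length and level the median of the members was -0.0464, in place of -0.0706. Of the 6 called genes Ndufs4, Uqcrb and Ndufaf3 passed with this offset, Atp5d, Ndufa13 and Cox4i1 did not (edgeR adjusted p = 0.0657, 0.173 and 0.222), and the pseudogene Cox6c2 was called in addition (-0.14, adjusted p = 0.0438). DESeq2 called 3 members lower (Atp5d, Uqcrb and Ndufs4; 1.92% of its genes were lower and 1.71% higher) and limma voom 1 (Ndufs4; 1.83% of its genes were lower and 1.80% higher).

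Promoters of the called genes are shown to place the differences beside the motifs for which respiratory genes are known. Nuclear respiratory factor 1 (NRF1) and ETS factors such as GABP bind many such promoters. RefSeq windows (GRCm38.p6, 250 bases before to 50 after the start) were at hand for 77 of the 99 symbols and 4 of the 6 called genes; Uqcrb and Cox4i1 had none. Windows are printed 5′ to 3′ on the gene's strand for Ndufs4 (chr13:114388045-114388344, minus), Ndufa13 (chr8:69901971-69902270, minus), Atp5d (chr10:80142025-80142324, plus) and Ndufaf3 (chr9:108567387-108567686, minus), with Sdha (chr13:74350191-74350490, minus), which was not called, as an example with 3 NRF1 matches, picked after its values were seen. Capitals mark exact matches on either strand to 4 motifs, NRF1 (GCGCA, any base, GCGC), ETS (CCGGAAG), YY1 (AAGATGGCG) and SP1 (GGGCGG).
Ndufs4: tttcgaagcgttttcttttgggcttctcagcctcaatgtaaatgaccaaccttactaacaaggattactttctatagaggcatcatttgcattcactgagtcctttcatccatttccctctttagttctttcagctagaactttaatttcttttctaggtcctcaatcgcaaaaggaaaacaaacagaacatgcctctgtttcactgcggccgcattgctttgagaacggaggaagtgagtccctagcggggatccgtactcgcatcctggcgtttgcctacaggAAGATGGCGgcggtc
Ndufa13: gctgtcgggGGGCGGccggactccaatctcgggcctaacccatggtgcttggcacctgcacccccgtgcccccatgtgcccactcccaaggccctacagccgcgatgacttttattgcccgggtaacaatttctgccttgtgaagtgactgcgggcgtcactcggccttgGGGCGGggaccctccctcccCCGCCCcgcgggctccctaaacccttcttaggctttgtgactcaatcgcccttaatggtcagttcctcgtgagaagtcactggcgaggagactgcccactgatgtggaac
Atp5d: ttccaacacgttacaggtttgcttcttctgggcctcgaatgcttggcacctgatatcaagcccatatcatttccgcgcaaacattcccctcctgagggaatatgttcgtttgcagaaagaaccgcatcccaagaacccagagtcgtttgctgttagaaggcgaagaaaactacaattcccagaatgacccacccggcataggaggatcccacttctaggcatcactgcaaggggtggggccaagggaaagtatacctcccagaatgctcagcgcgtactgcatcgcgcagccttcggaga
Ndufaf3: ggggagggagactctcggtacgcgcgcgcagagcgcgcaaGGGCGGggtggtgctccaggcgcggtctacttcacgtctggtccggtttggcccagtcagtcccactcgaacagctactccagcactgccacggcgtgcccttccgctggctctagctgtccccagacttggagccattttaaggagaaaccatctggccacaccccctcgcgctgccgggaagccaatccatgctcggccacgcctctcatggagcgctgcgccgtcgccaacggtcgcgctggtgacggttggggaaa
Sdha: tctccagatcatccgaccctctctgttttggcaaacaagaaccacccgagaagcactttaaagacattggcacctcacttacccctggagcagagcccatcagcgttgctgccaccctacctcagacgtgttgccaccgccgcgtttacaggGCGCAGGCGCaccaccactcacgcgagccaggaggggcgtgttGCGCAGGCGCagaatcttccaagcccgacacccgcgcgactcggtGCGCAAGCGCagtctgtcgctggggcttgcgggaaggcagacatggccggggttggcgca
Sdha carried 3 NRF1 matches, as many as any member, Ndufs4 1 YY1 match close to the downstream end, Ndufa13 3 SP1 matches, Ndufaf3 1 SP1 match and Atp5d none of the 4. Each motif was counted on its own, so matches of different motifs could share bases.

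The NRF1 motif was in 24.39% of the 82 member windows and 4.6% of all 32851 windows of this length. The shares were 21.95% and 8.86% for ETS, 9.76% and 1.4% for YY1, and 45.12% and 35.66% for SP1. The median log2 fold change of tested members with and without a match was -0.08 and -0.07 for NRF1, -0.11 and -0.07 for ETS, -0.07 and -0.07 for YY1, and -0.07 and -0.08 for SP1. By edgeR 0 of 19 tested members with an NRF1 match and 4 of 56 without were called. The counts were 0 of 18 and 4 of 57 for ETS, 1 of 8 and 3 of 67 for YY1, and 2 of 35 and 2 of 40 for SP1, beside 5.14% over all genes tested, and nothing is read from them. At an unadjusted p under 0.05, 5 members with an NRF1 match were lower and 1 higher, and 3 with an ETS match were lower and 0 higher; DESeq2 and limma voom also called 0 in both sets. A match describes the letters of a window and does not show that a factor binds there. Among genes of the factors, log2 fold changes were 0.00681 for Nrf1, 0.00556 for Gabpa and 0.00407 for Yy1 (edgeR adjusted p = 0.965 to 0.980), and 0.15 and 0.07 for Gabpb1 and Gabpb2, the beta subunits of GABP (unadjusted p = 0.0302 and adjusted p = 0.247 for both).

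Complex I, which takes electrons from NADH, had 2 of 38 tested members called lower and 27 of 38 below 0 (median log2 fold change -0.07). Ndufs4 encodes an accessory subunit of the NADH-oxidising arm whose loss in mice gives a Leigh-like encephalopathy. It had 39.1, 37.0, 41.5 and 36.2 CPM in WT replicates 1 to 4 and 33.8, 31.4, 32.2 and 33.2 in KO replicates 1 to 4. Every KO library lay below every WT library. The log2 fold change was -0.23 with a standard error of 0.055 (edgeR adjusted p = 0.00150), and Ndufs4 was the 1 member called lower under all 20 other settings and tools in which it was tested. The gene lies on chromosome 13 from 114287795 to 114388258 on the minus strand (GRCm38, ENSMUSG00000021764).

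Ndufa13, an accessory subunit also known as GRIM-19, had 25.7, 25.3, 26.6 and 26.7 CPM in the WT libraries and 23.7, 21.8, 23.6 and 21.5 in the KO libraries. The groups were apart, with a gap between WT replicate 2 and KO replicate 1. Its log2 fold change was -0.20 (standard error 0.066, edgeR adjusted p = 0.0465), a value close to the threshold that was lost on leaving out any library but KO replicate 1 (adjusted p = 0.0512 to 0.174 in those 7 fits). Among the other complex I genes, Ndufb3 had the largest fitted difference (-0.27, adjusted p = 0.448) with only 49 to 92 counts a library. Of the core subunits, the conserved catalytic part of the complex, Ndufs8 had a log2 fold change of -0.20 (unadjusted p = 0.0146, adjusted p = 0.159), close in size to that of Ndufa13, and the NADH-binding Ndufv1 one of 0.02 (adjusted p = 0.913). Values of Ndufv2, Ndufs1, Ndufs3 and Ndufs7 were -0.07, -0.03, 0.08 and 0.05 (adjusted p = 0.699 to 0.818), and none of these was called by edgeR.

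Ndufs3, a core subunit of the arm that carries electrons to ubiquinone, was the most abundant protein-coding member of complex I per length and stood apart in its pattern. Its levels were 152, 162, 153 and 140 CPM in the WT libraries and 141, 169, 163 and 167 in the KO libraries. KO replicate 1 lay among the lowest, and the other KO libraries above all WT libraries. Its log2 fold change was 0.08 (edgeR adjusted p = 0.713), and 0.13 (adjusted p = 0.00122) without KO replicate 1.

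Complex II, succinate dehydrogenase, is encoded wholly in the nucleus, and 0 of its 4 genes were called by edgeR, DESeq2 or limma voom, though all 4 log2 fold changes were below 0 and 1 gene, Sdha, had an unadjusted p under 0.05 in each. Sdha, the flavoprotein that oxidises succinate, had 158, 163, 162 and 160 CPM in the WT libraries and 142, 151, 158.1 and 154 in the KO libraries. WT replicate 1, at 158.11, lay just above KO replicate 3, at 158.09, so the groups touched without overlapping. The log2 fold change was -0.09 with a standard error of 0.0292 (edgeR adjusted p = 0.0603), and it passed under 6 of 20 other settings. The iron-sulphur subunit Sdhb and the membrane anchors Sdhc and Sdhd had log2 fold changes of -0.04, -0.01 and -0.17 (adjusted p = 0.858, 0.963 and 0.411). Per length, Sdha stood at 38.9 ± 0.507 CPM per kilobase in the WT libraries (SD, n = 4), above Sdhd at 9.63 ± 0.740 and Sdhb at 8.97 ± 0.157, which did not differ beyond their spread, and Sdhc at 5.51 ± 0.279.

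Complex III passes electrons from ubiquinol to cytochrome c, and 1 of its 9 genes was called, with 7 below 0 (median -0.08). Uqcrb, a small subunit needed for assembly and near the ubiquinone site, had 34.8, 33.6, 32.8 and 38.0 CPM in the WT libraries and 26.5, 33.2, 32.3 and 26.3 in the KO libraries. KO replicates 1 and 4 were low, while KO replicates 2 and 3 were near the WT libraries, and the groups overlapped. The log2 fold change was -0.23 with a standard error of 0.060 (edgeR adjusted p = 0.00510), and the call was lost without WT replicate 4, KO replicate 1 or KO replicate 4 (adjusted p = 0.0532 to 0.0904). Uqcrb has 3 near-identical copies, at 97.598 to 98.214% identity, whose reads may have been counted with it; their own log2 fold changes were -0.31 (Gm5457, adjusted p = 0.313), -0.24 (Gm16089, adjusted p = 0.1001) and -0.28 (Gm2962, adjusted p = 0.0443). Cyc1, the cytochrome c1 subunit, and the core subunit Uqcrc2 had log2 fold changes of 0.03 and 0.01 (adjusted p = 0.904 and 0.983).

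Cycs, the soluble carrier between complexes III and IV, was not called. It had 27.7, 28.4, 27.4 and 25.2 CPM in the WT libraries and 25.8, 22.1, 24.9 and 24.3 in the KO libraries, with KO replicate 1 above WT replicate 4 (log2 fold change -0.16, edgeR adjusted p = 0.135). Its 4 near-identical copies may share reads with it, and their log2 fold changes were between -0.37 and -0.21 with none called (edgeR adjusted p = 0.123 to 0.684).

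Complex IV, cytochrome c oxidase, had 1 of 17 tested members called and 10 below 0 (median -0.06). Cox4i1, the form of subunit 4 found in most tissues, had 45.3, 43.1, 39.7 and 44.8 CPM in the WT libraries and 41.1, 38.4, 36.6 and 38.5 in the KO libraries. WT replicate 3 lay below KO replicate 1 and above the other KO libraries. Its log2 fold change was -0.16 with a standard error of 0.052 (edgeR adjusted p = 0.0454), and it was called on leaving out only WT replicate 3 or KO replicate 1, not any of the other 6 libraries (adjusted p = 0.0847 to 0.210).

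Several complex IV subunits have isoforms, in which the forms of muscle, lung or testis replace the common ones. The common form led in each set with such a pair. In the WT libraries Cox4i1 was at 27.9 and Cox4i2, the form of lung and hypoxia, at 1.40 CPM per kilobase, and Cox6a1 was at 40.3 and the muscle form Cox6a2 at 0.134. Cox6b1 was at 17.2 and the testis form Cox6b2 at 3.28, and Cox7b was at 17.5 and Cox7b2 at 0.447. Cox8a was at 28.4, with Cox8b at 0.389 and Cox8c at 0.0944. Cox7a2l, a factor of supercomplex assembly related to subunit 7a, was at 14.9, above Cox7a2 at 8.30 and the muscle form Cox7a1 at 3.27. The share of Cox7a2 in the summed level of these 3 genes was 31.3 ± 3.20% in the WT libraries and 35.3 ± 2.30% in the KO libraries (SD, n = 4), with overlapping groups. Ndufa4 and its relative Ndufa4l2 stood at 5.08 and 0.753. The counts behind the low forms were few, 20 for Cox6a2, 26 for Cox7b2, 19 for Cox8b and 5 for Cox8c over the 8 libraries.

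None of these isoforms passed the test other than Cox4i1. Log2 fold changes of Cox4i2, Ndufa4l2 and Cox7a2 were 0.18, 0.28 and 0.12 (edgeR adjusted p = 0.856, 0.778 and 0.684), and those of Cox6a1, Cox7a2l and Ndufa4 were -0.14, -0.15 and -0.14 (adjusted p = 0.217, 0.263 and 0.663). Cox6b1, Cox6b2, Cox7a1, Cox7b and Cox8a lay between -0.10 and 0.05. The most abundant member per length, Cox6c2, at 263.6 CPM per kilobase in the WT libraries, is a processed pseudogene of 231 bases with 96.97% identity to Cox6c, so reads of that gene may have been counted there; Cox6c stood at 26.3 over a length of 3567 bases.

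**Figure D2:**
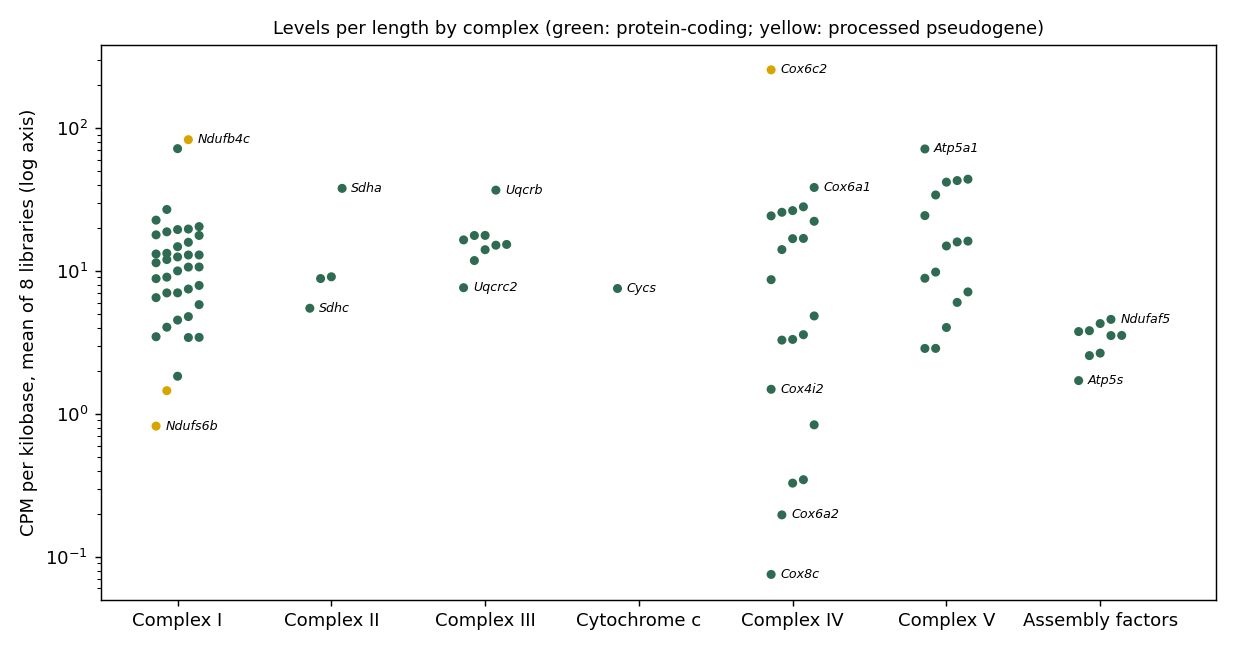
CPM per kilobase of each member, as the mean of 8 libraries on a log axis, by complex; green points are protein-coding genes and yellow points processed pseudogenes, and a row with no counts is not drawn. Complex IV spans the widest range, from Cox8c to the pseudogene Cox6c2 at 255.1, and assembly factors lie between 1.71 (Atp5s) and 4.58 (Ndufaf5).

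Complex V, ATP synthase, had 1 of 16 tested members called, but 15 of the 16 were below 0 (median -0.07). Atp5d, the delta subunit in the central stalk of the catalytic head, had 33.0, 33.8, 30.68 and 36.4 CPM in the WT libraries and 26.8, 29.0, 30.72 and 28.7 in the KO libraries. WT replicate 3 and KO replicate 3 were level, and the other KO libraries lay below all WT libraries. The log2 fold change was -0.21 with a standard error of 0.059 (edgeR adjusted p = 0.0114), and it no longer passed on leaving out WT replicate 4 or KO replicate 1 (adjusted p = 0.113 and 0.0716).

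The large catalytic subunits of complex V were measured with more precision and differed by less. Atp5a1, the alpha subunit, had 222, 233, 230.3 and 231 CPM in the WT libraries and 219.8, 216, 219 and 218 in the KO libraries, with no overlap. Its log2 fold change was -0.07 with a standard error of 0.0255, the smallest of all members (edgeR adjusted p = 0.0814). Atp5b, the beta subunit, was similar (-0.07, adjusted p = 0.117). The small membrane subunit Atp5mpl and coupling factor 6, Atp5j, were also without overlap, with log2 fold changes of -0.12 and -0.08 (adjusted p = 0.113 and 0.324).

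Subunit c, which forms the rotor ring, is made from 3 genes that give the same mature protein. By the counts at each locus, Atp5g3 led at 16.2 ± 0.338 CPM per kilobase in the WT libraries (SD, n = 4). Atp5g2 followed at 6.64 ± 0.584 and Atp5g1 at 2.92 ± 0.171. Atp5g2 was the 1 member of complex V above 0, with 10.4, 11.2, 10.4 and 12.5 CPM in the WT libraries and 12.6, 13.2, 13.1 and 12.2 in the KO libraries. Only WT replicate 4 reached into the KO range. Its log2 fold change was 0.20 (edgeR adjusted p = 0.266), and its share of the summed level of the 3 genes was 25.8 ± 1.54% in the WT libraries and 29.1 ± 0.702% in the KO libraries (SD, n = 4). Atp5g2 has 2 copies of 100% identity, Gm10175 (645 aligned bases) and Gm10231 (441), with log2 fold changes of 0.25 and 0.28 (edgeR adjusted p = 0.143 and 0.127). Reads within these bases cannot be told apart between the 3 loci. Over the 8 libraries the copies had 1481 and 1243 counts, against 1725 for Atp5g2. Atp5g1 has a copy of 99.757% identity, Gm10039, with 881 counts against 2040. The order and shares of the 3 genes may therefore depend on how such reads were counted, which is not given.

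Of the 9 assembly factors 1 was called and 6 were below 0 (median -0.10). Ndufaf3, which acts with Ndufaf4 early in the assembly of complex I, had 4.51, 6.00, 6.53 and 5.49 CPM in the WT libraries and 3.24, 5.08, 5.04 and 2.72 in the KO libraries. KO replicates 1 and 4 were low, as for Uqcrb, and the other pair overlapped the WT libraries. The log2 fold change was -0.50 with a standard error of 0.149 (edgeR adjusted p = 0.0258), from 53 to 124 counts a library. It was called in 4 of the 8 fits that leave out 1 library, and not when WT replicate 2, WT replicate 3, KO replicate 1 or KO replicate 4 was left out; in the last of these it was -0.34 (adjusted p = 0.262). Ndufaf4 had a log2 fold change of -0.13 (adjusted p = 0.604). Atp5s, a coupling factor, had the highest log2 fold change of the members, 0.32 (adjusted p = 0.346).

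**Figure D3:**
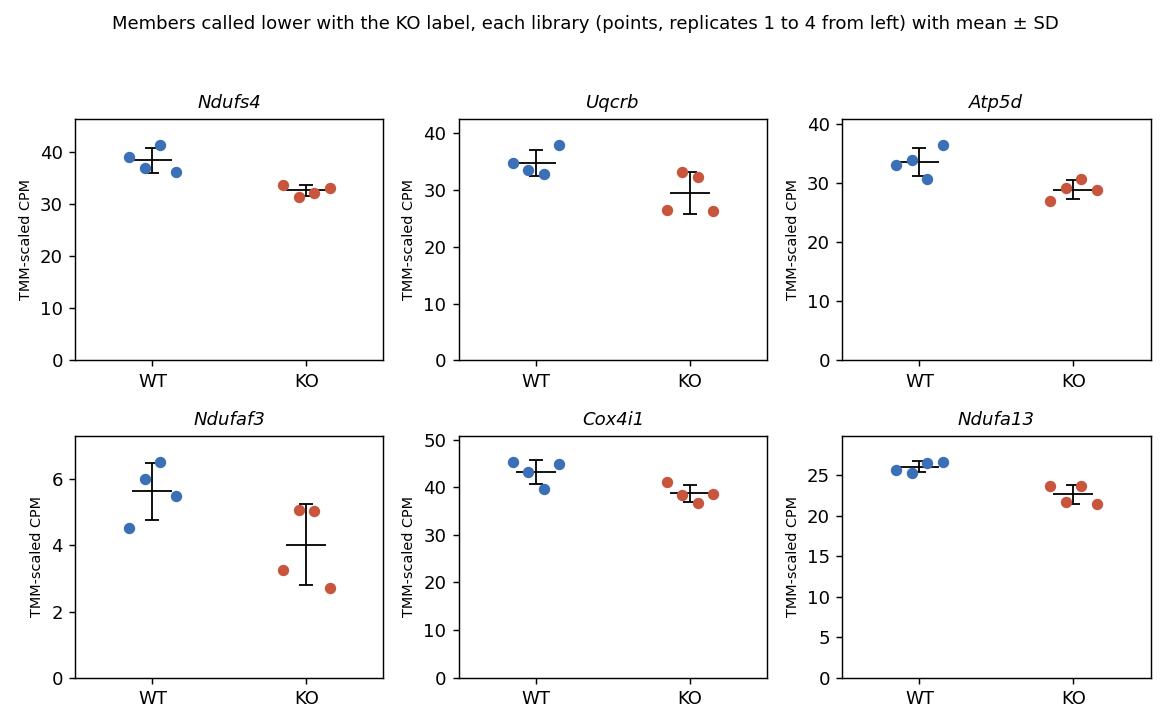
TMM-scaled CPM of the 6 members called lower, in each library (points, replicates 1 to 4 from left to right), with mean ± SD; axes start at 0. The groups are apart for Ndufs4 and Ndufa13, while for Uqcrb and Ndufaf3 KO replicates 1 and 4 lie lowest.

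**Figure D4:**
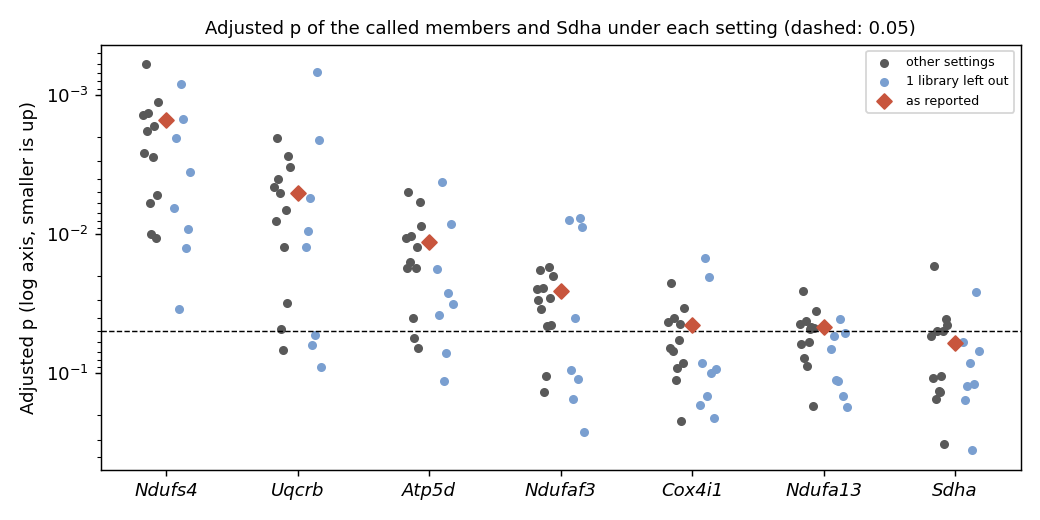
Adjusted p of the 6 called members and Sdha (log axis, smaller is up) as reported (diamonds), on leaving out 1 library (blue) and under other settings (grey); the dashed line is 0.05. Ndufs4 stays above the line throughout, at 0.0346 or less, and the others cross it.

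Exons of some members lie against a gene on the other strand, and the sources used here do not give the strand setting of the counting. Of the called genes Ndufa13 shares 375 bases with Tssk6, Cox4i1 154 with Emc8, Atp5d 68 with Cbarp, Uqcrb 50 with Gm10767 and Ndufaf3 48 with Impdh2. In all, 29 members have a near-identical copy and 29 overlap a gene on the opposite strand. Among the 45 tested members with no copy and no overlapping gene, 1 was called (Ndufs4). This was 2.22%, below the 5.14% called over all genes tested. Of the same 45, 33 were below 0 (73.3%, against 49.3% of all genes tested), and the median log2 fold change was -0.07.

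Summed over the 100 rows, the nuclear genes made up 2739.6, 2724.3, 2730.3 and 2732.7 CPM in the WT libraries and 2597.5, 2622.8, 2614.1 and 2591.4 in the KO libraries. The groups were apart, with means of 2731.7 ± 6.33 and 2606.4 ± 14.5 CPM (SD, n = 4), a difference of -4.59%. By complex the sums were also without overlap for complex I (-2.85%), complex II (-5.45%), complex IV (-5.20%) and complex V (-5.19%). They overlapped for complex III (-6.07%), cytochrome c (-10.7%) and the assembly factors (-6.24%). Without Ndufs3, which alone gives about 152 of 911 CPM in the WT libraries, complex I differed by -4.49%. The sums include processed pseudogenes, where reads of the parent genes may have been counted. Ndufb4c (33.7 CPM in the WT libraries) is 100% identical to Ndufb4 over 390 bases, and Cox6c2 (60.9 CPM) resembles Cox6c. Ndufb4c had 534, 659, 653 and 617 counts in the WT libraries, and Ndufb4 577, 681, 680 and 636. In the KO libraries they had 537, 499, 583 and 591, and 562, 527, 613 and 630. The same reads may thus stand at both loci, in the sums and in the numbers of members below 0, which was not tested. No sum was taken without them. In the fit of nuclear protein-coding genes alone, 67 of 91 tested members were below 0. No test was run on these sums, since the members were chosen with results of these data known.

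The 13 protein-coding genes of the mitochondrial genome, which supply the partner subunits, showed no such shift to lower values. Log2 fold changes were above 0 for 10 of these genes and below 0 for 3. Their sum was 31435 to 31875 CPM in the WT libraries and 31833 to 32564 in the KO libraries, a difference of 1.85% with overlapping groups, and 0 of 13 were called by edgeR, with 4 higher and 0 lower at an unadjusted p under 0.05. DESeq2 also called 0, while limma voom called 2 higher (mt-Co1 and mt-Atp8) and 1 lower (mt-Nd1), with log2 fold changes of 0.03, 0.21 and -0.03 (adjusted p = 0.0133, 0.0116 and 0.00974). The lowest p belonged to mt-Co2 and mt-Co1 of complex IV, with log2 fold changes of 0.05 and 0.03 (edgeR adjusted p = 0.0763 and 0.175). By complex, the sums of mitochondrial subunits differed by -0.339% (I), 0.954% (III), 2.6% (IV) and 6.21% (V), with overlapping groups in each. The difference between nuclear and mitochondrial subunits was not itself tested.

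**Figure D5:**
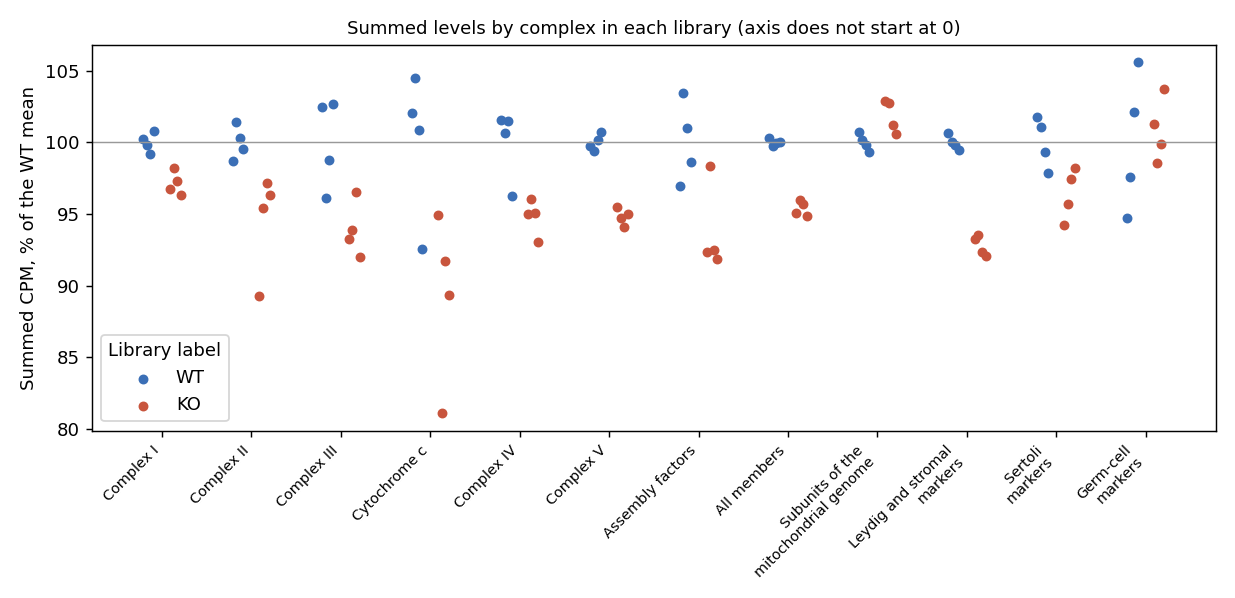
Summed CPM per library as a percentage of the mean of the WT libraries (the axis does not start at 0), by complex, for all members, the 13 subunits of the mitochondrial genome and 3 marker lists; blue points are libraries labelled WT and red points libraries labelled KO. The sums of all members and of Leydig and stromal markers lie below the WT libraries in every KO library, by 4.59% and 7.18% in the means, and those of germ-cell markers overlap.

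Markers of other testis cells moved with the label as well. By edgeR 2.80% of all genes tested were called lower and 2.35% higher. Of 7 Leydig and stromal markers 4 fell (Cyp11a1, Cyp17a1, Hsd3b1 and Star). The other 3 were not called. Of these, Insl3 and Nr2f2 lay above 0 (0.039 and 0.045, edgeR adjusted p = 0.910 and 0.356) and Pdgfra below (-0.036, adjusted p = 0.421). The sum of all 7 was 3585 to 3629 CPM in the WT libraries and 3321 to 3372 in the KO libraries, -7.18%. Cyp17a1 was its largest part, with means of 1314 and 1190 CPM. Of 7 Sertoli markers 2 fell (Inha and Aard), with sums of 658 to 684 and 633 to 660 CPM. Germ-cell markers summed to 149 to 166 and 155 to 163 CPM, and 2 of 8 tested, Dazl and Dppa3, rose. Of the same 8 markers 4 had log2 fold changes below 0, and Tdrd9 (-0.15, edgeR adjusted p = 0.0652) and Dnd1 (-0.33, adjusted p = 0.0915) had lower values in every KO library than in any WT library without being called. Blood markers fell for 4 of 9, all of them globin genes, with sums of 230 to 244 and 97.5 to 105 CPM. Muscle markers fell for 2 of 8 tested, Ttn and Nrap, with sums of 149 to 154 and 78.6 to 83.4 CPM. Ttn alone had means of 124.6 CPM in the WT libraries and 57.5 in the KO libraries. The other 6 tested muscle markers were not called, and 1 of them, Tnnt3, lay above 0 (0.06, edgeR adjusted p = 0.872). Epithelial markers rose for 9 of 9 (43.8 to 47.9 and 90.9 to 101 CPM), and endothelial markers rose for 2 of 6 (167 to 183 and 191 to 197 CPM). None of the defining markers Cyp17a1, Amh, Hba-a1 or Ddx4 was at 0 in either group. The part of these cells in the lower level of nuclear oxidative phosphorylation genes was not tested. With the mean log2 level of the markers of other cell types as a covariate, 6 members were called and the median was -0.0753, but that mean was 4.27 to 4.30 in the WT libraries and 4.27 to 4.35 in the KO libraries and so did not separate the groups.

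Genes that build and control the complexes were followed beside them. Of 41 tested assembly factors and related genes outside the named families, 1 was called. This was 2.44%, below the 5.14% called over all genes tested. The gene, Lrpprc, was listed with complex IV, in whose human deficiency it is mutated, but it stabilises mitochondrial messenger RNAs. Lrpprc fell from 99.98 ± 2.20 to 91.5 ± 2.77 CPM (SD over 4 libraries each), with no overlap and a log2 fold change of -0.13 (edgeR adjusted p = 0.0107). The median over the 41 was 0.02, and 20 of the 41 were below 0. Of 18 regulators of mitochondrial biogenesis 0 were called by edgeR, DESeq2 or limma voom, with 3 higher and 1 lower at an unadjusted p under 0.05 in edgeR. The lowest p values were those of Tfam, which packages and transcribes mitochondrial DNA (-0.20, adjusted p = 0.0647), and of the coactivator Ppargc1b (0.30, adjusted p = 0.183). Tfam had lower values in every KO library than in any WT library, as had 4.72% of all genes tested. It was called under 1 of 20 other settings. Of 9 core proteins of the mitochondrial ribosome 0 were called by any of these tools (median -0.05, 1 lower at an unadjusted p under 0.05 in edgeR).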

How the data were processed

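Total RNA of sorted fetal germ cells was sequenced in 4 libraries labelled WT and 4 labelled KO. The deposited values were raw counts of reads per gene, with no normalization. The submitters' processing notes name STAR 2.5.2b, featureCounts of Subread and DESeq2, and the build GRCm38, without settings; strand use and treatment of multi-position reads are not given in the sources used here. Symbols came from GENCODE M21, in which all 100 members had the same positions. Low counts were filtered with filterByExpr, libraries scaled by TMM, and KO compared with WT by the robust quasi-likelihood test of edgeR 4.0.16 in R 4.3.3, two-sided, over 23190 genes. DESeq2 1.42.0 and limma voom 3.58.1 were alternatives. At 16346977 to 20311338 counts per library, the standard error of a member's log2 fold change was 0.0255 to 0.391 (median 0.0761). Near-identical copies (at least 95% identity over 150 bases and 70% of the shorter transcript) were found with BLAST+ 2.17.0+ and overlaps with bedtools 2.31.1.

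Genes were named by rule: every called member, the 2 lowest p values of a class with no call, the highest and lowest level per length of each class, the isoform sets, Sdha to Sdhd, Cyc1 and Cycs, and called genes or the 2 lowest p values of other lists. Ndufs3, Ndufv1, Ndufs1, Ndufb3, Ndufaf4, Cox6c, Atp5b, Atp5mpl, Atp5j, Nrf1, Gabpa, Gabpb1, Gabpb2, Yy1, Ndufv2, Ndufs7, Ndufs8, Tdrd9 and Dnd1 were named outside it after their values were seen. The members and all lists were chosen with earlier results of these data known. Alternatives were other scalings, filters, tests and thresholds, the replicate number as a block, an offset on length and level, a marker covariate, protein-coding genes alone and each library left out. The replicate numbers were not taken to pair the libraries, since the correlations of same-numbered libraries' deviations were not all above 0.1. This does not exclude pairs, about which the labels say nothing. A marker gene of the stromal list is not reported here and was left out of its sums and of the covariate.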

Additional observations from a re-analysis of the deposited data

Results flagged for a closer look

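Of 100 groups of 4 libraries examined, 4 held a value that stood apart from the other 3 of its group. The measure was Dixon's gap-to-range ratio at its 95% critical value, where chance gives about 1 group in 20. Cox8c was at 0.1025 CPM in KO replicate 4, from 2 counts, with the other 3 KO libraries at 0. The mitochondrial gene mt-Co2 was at 1996 CPM in WT replicate 4, against 1912 to 1923 in the other WT libraries. The gene mt-Co1 was at 7866 CPM in WT replicate 1, against 7711 to 7729. The summed level of the 9 assembly factors was 64.72 CPM in KO replicate 2, against 60.47 to 60.85 in the other KO libraries, and it is the 1 KO library whose sum reaches into the WT range of 63.797 to 68.094 CPM.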

How the results depend on the processing

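The median log2 fold change of the members was below 0 under all 20 other settings tried, from -0.0874 (library totals alone) to -0.0464 (offset on length and level), and so was that of each complex. The number of genes called was 1193 as reported, 794 by DESeq2, 678 at an adjusted p under 0.01 and 898 to 1040 on leaving out a library. Members called, all lower, were 6 as reported, 3 by DESeq2, 1 by limma voom, 2 at an adjusted p under 0.01 and 9 with library totals alone; on leaving out a library they were 2 to 5, with 2 to 5 lower and 0 to 1 higher. Without WT replicate 4, 2 members were called lower, without KO replicate 4 also 2, and without KO replicate 1, 3 lower and 1 higher (Ndufs3). With the replicate number as a block 7 members and 1249 genes were called, Sdha (adjusted p = 0.0497) joining the 6. The correlations of same-numbered libraries' deviations were 0.0253, 0.128, 0.0523 and -0.0184, so the numbers were not taken to pair the libraries. Among the named genes, signs changed only for members with adjusted p above 0.5 in every setting. Uqcrc2 was -0.0095 with library totals and -0.0027 by limma voom, and Cox6b2 -0.0068 with library totals and -0.0078 with the marker covariate. On leaving out a library the ranges were -0.0597 to 0.0683 for Uqcrc2, -0.101 to 0.141 for Cox6b2, -0.0478 to 0.0216 for Sdhc, -0.146 to 0.00717 for Ndufaf5, -0.0212 to 0.355 for Cox4i2, -0.141 to 0.00502 for Cox6b1, -0.0925 to 0.328 for Cox7a1, -0.0816 to 0.00518 for Cox8a, -0.0750 to 0.0111 for Sdhb and -0.0303 to 0.0746 for Cyc1. The cause of these changes was not tested. Genes with few counts had wide errors: Ndufb3 (-0.27, standard error 0.164) and Atp5s (0.32, standard error 0.170) were not called.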
